A study of Cloeon viridulum with 15 samples.

Results

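The 3 young larva libraries of the mayfly Cloeon viridulum were set against 3 libraries of a mixture of life stages, which served as the control of the series. The comparison was read over unigenes, the transcript sequences assembled from the reads, whose best protein hit was from an animal. Of 91881 unigenes in the deposited table, 17344 met this rule, with 15002 best hits from arthropods and 2342 from other animals. Of these members, 13442 passed the filter on low counts and were tested, out of 34131 unigenes tested in all. The remaining members were not tested. A young larva library held whole-body RNA of 10 pooled animals, whose sexes the labels do not give. A mixture library held whole-body RNA of 11 pooled animals, namely 5 young larvae together with a male and a female mature larva, subimago and imago. Young larvae had been collected in the wild from open water and were kept indoors in water and with plants of that site, at 22 ± 1 °C and a humidity of 60%, lit for 16 h and dark for 8 h a day, and the later stages were reared from them. The series comprised 15 libraries in 5 groups, of which the 6 described here are the young larvae and the mixture. Per the labels, the 3 libraries of each group are biological replicates, and strain is not given in the sources used here.

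Mayfly larvae live in water, where they graze on algae and detritus, breathe through gills and pass through many moults. The winged subimago leaves the water, moults once more with its wings already in use and turns into the imago, which mates and lays eggs, and the winged stages do not feed. Gut enzymes are therefore known as a larval trait in this order, while yolk deposition and egg maturation are known from late larvae and winged females.

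Young larva libraries held 36550269, 44206541 and 48798785 assigned reads, and mixture libraries 37396984, 37998341 and 48915598. Unigenes whose best hit was not from an animal accounted for 8.00%, 1.74% and 5.05% of reads in young larvae, against 0.315%, 0.255% and 0.247% in the mixture. Best hits from animals other than arthropods took 8.35%, 2.75% and 5.62% of reads in the young larvae, against 1.65%, 1.36% and 1.32% in the mixture. The first principal component, taken over tested arthropod hits in all 15 libraries, held 72.7% of the variance. Young larva replicate 2 stood apart on it from replicates 1 and 3 (137 against 173 and 172), and the mixture lay at -43.1, -23.3 and -41.9. The unigene First_Contig81, without a best hit, made up 34.3% of mixture replicate 3 and at most 0.00547% of any other library of the 6.

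The mixture held little RNA that could be traced to young larvae. The labels put 5 young larvae among the 11 pooled animals, which is 45.5% of the animals, while RNA yield per animal is not given in the sources used here. Among animal hits, 48 unigenes reached 50 reads or more in each of the young larva libraries without a read in the 8 later-stage libraries other than mature larva replicate 1. Summed over these 48 unigenes, the level was 0.279%, 0.336% and 0.207% of the young larva mean in mixture replicates 1, 2 and 3, and 15 of the 48 had no read in any mixture library. In mature larva replicate 1 the same sum was 50.5% of the young larva mean, and no unigene met the rule once that library was also required to be at 0. A wider set of 874 animal-hit unigenes had a young larva mean of at least 10 CPM, the counts scaled to a common library size, and at most 1% of it in each later stage, with mature larva replicate 1 left out. Their median level was 0.265%, 0.341% and 0.347% of the young larva mean in the mixture libraries and 48.0% in mature larva replicate 1. Each mixture library was also fitted as a non-negative sum of the 4 stage means over the 13442 tested unigenes. The young larva share came to 0% in all 3, and to at most 6.18% with another weighting, mature larva replicate 1 left out, or both. The mature larva share of the first fit was 67.2%, 91.9% and 18.8% in mixture replicates 1, 2 and 3, so the split between stages was not stable. Without the RNA yield per animal, these measures cannot tell whether the mixture pools held the 5 young larvae of their label. Both sets of unigenes were high in mature larva replicate 1, while the rules that chose them kept them low or absent in replicates 2 and 3. Whether the mixture libraries and mature larva replicate 1 are labelled as they were made was not tested. The name mixture below means the 3 libraries labelled so, and results that use the mature larva mean are given with and without replicate 1.

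**Figure D1:**
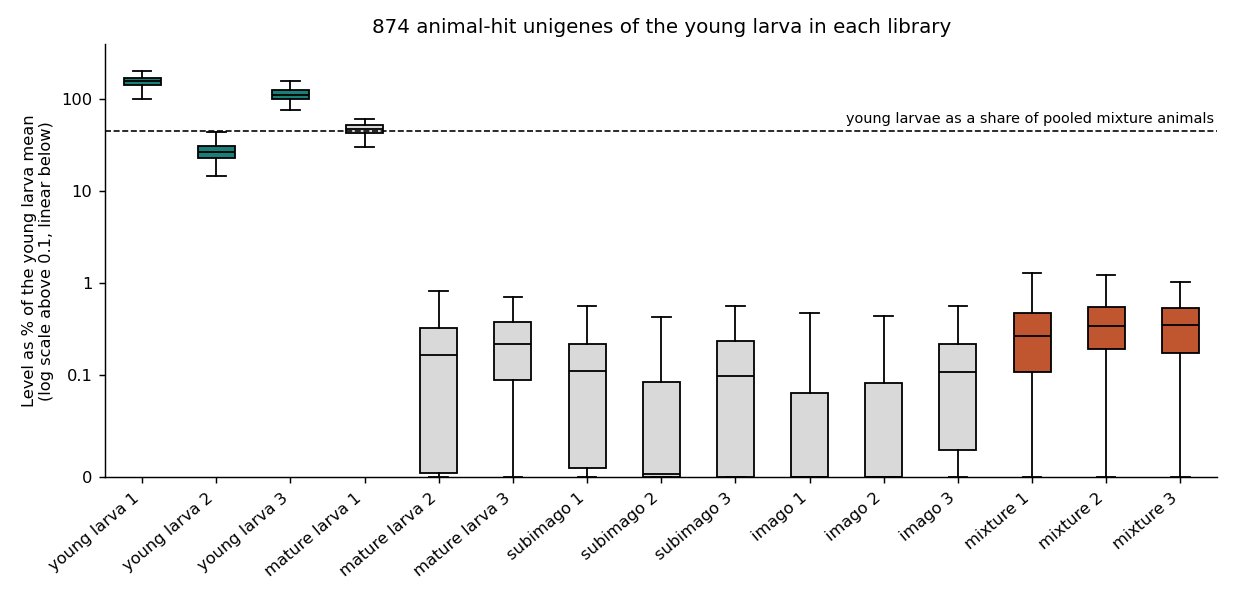
Level of the 874 animal-hit unigenes in each library, as a percent of their young larva mean (boxes, quartiles with the median; whiskers, 5th to 95th percentile; log scale above 0.1). The mixture medians of 0.265% to 0.347% lie near those of the later stages and far under the dashed line at 45.5%. Mature larva replicate 1 lies near that line. The line is the share of pooled animals that were young larvae, which is not a share of RNA.

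Most animal-hit unigenes differed between the groups. Of 13442 tested, 3914 were called higher in young larvae (29.1%) and 5394 lower (40.1%) by edgeR's quasi-likelihood test at an adjusted p under 0.05, so 69.2% were called in either direction and 4134 were not called. The 3 young larva libraries lay above all 3 mixture libraries for 4425 unigenes (32.9%) and below them for 5581 (41.5%). The calls higher reached further than the calls lower, since 1278 unigenes were at least 64-fold higher in young larvae and 330 at least 64-fold lower by the fitted change. For arthropod hits alone these counts were 667 and 236. Among the tested unigenes, 270 had no read in the mixture and 94 had no read in young larvae. The median log2 change of the tested animal hits was -0.23. This split depended on the scaling, for with library totals in place of TMM factors 4945 were called higher and 3419 lower, and the median of the animal hits moved to 0.33. With TMM factors taken from arthropod hits alone, 4909 were called higher and 4473 lower, with a median of 0.14. Over all tested unigenes these scalings raised the median log2 change by 0.57 and 0.38. Small changes below therefore hold only relative to the scaling used, and changes of several log2 units lie beyond it. In whole-body RNA, fewer cells of a type and less RNA per cell cannot be told apart.

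Arthropod hits and other animal hits differed in their balance. Of 11941 arthropod-hit unigenes, 3114 were called higher in young larvae (26.1%) and 5022 lower (42.1%). Of 1501 unigenes with another animal as best hit, 800 were called higher (53.3%) and 372 lower (24.8%), 78.1% together, with a median log2 change of 3.43. The 2924 tested unigenes with a hit outside animals, set beside them for scale, had 2066 called higher (70.7%) and 99 lower (3.39%), with a median of 7.41. Young larva replicate 2 was also set against replicates 1 and 3. In it, the called-higher unigenes outside animals lay at a median of 22.5% of the mean of young larva replicates 1 and 3, and those with another animal as best hit at 20.8%. All tested arthropod hits lay at a median of 95.2% there, those called higher at 79.9% and those called at least 16-fold higher at 22.0%. Whether unigenes with other-animal hits, or arthropod hits called at least 16-fold higher, are mayfly transcripts was not tested.

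**Figure D2:**
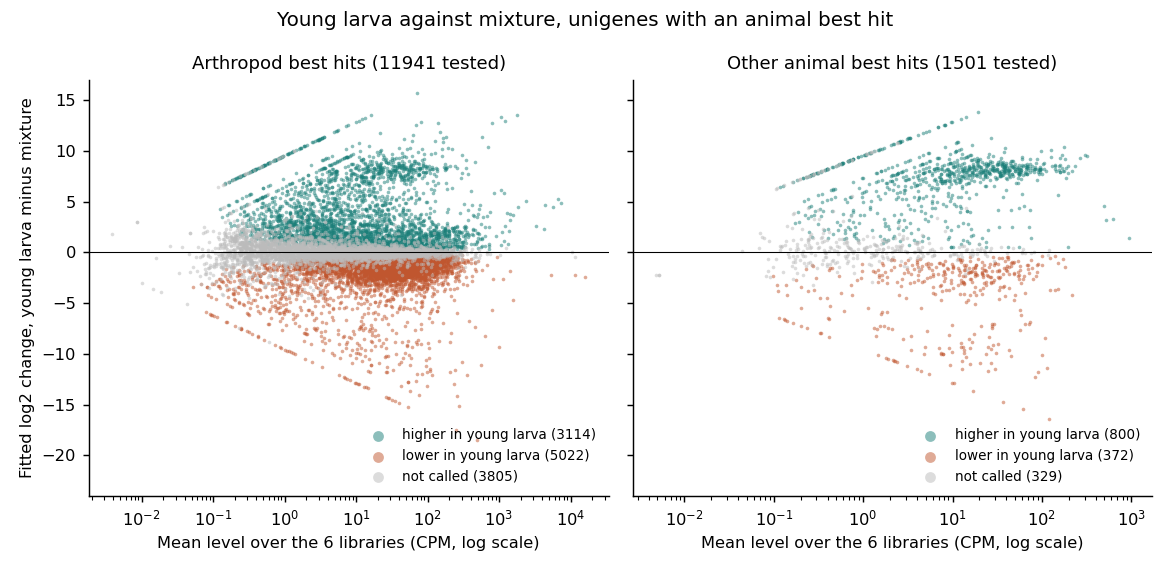
Fitted log2 change (young larva minus mixture) against the mean level over the 6 libraries for arthropod best hits (left) and other animal best hits (right), 1 point per tested unigene. Other animal hits spread widely, with a median change of 3.43, quartiles of -1.01 and 7.97, and 800 called higher and 372 lower. Arthropod hits are called lower (5022) more often than higher (3114), a balance that turns with library totals.

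Enzymes of the gut and of detoxification led the rises among arthropod hits. A sigma-class glutathione S-transferase (13_Contig_20503), an enzyme that couples glutathione to toxic compounds, had 166, 44.4 and 209.9 CPM in young larvae and no read in the mixture, at least 4599-fold higher in young larvae (adjusted p = 0.0142). Chymotrypsin BI (13_Contig_12396), a digestive serine protease, had 3432, 565 and 3267 CPM in young larvae, against 0.499, 0.203 and 0.194 CPM in the mixture (log2 change 12.99 ± 3.10, adjusted p = 0.00465). Both were far higher in all 3 young larva libraries, with replicate 2 the lowest of them. Chymotrypsin 5 (13_Contig_30829), another digestive serine protease, had 1401, 362 and 1679 CPM in young larvae, against 0.966, 0.174 and 0.139 CPM in the mixture (log2 change 11.41 ± 2.88, adjusted p = 0.00623). The homologue of the major cockroach allergen Bla g 1 (13_Contig_27786), a protein secreted by the midgut in cockroaches, had 2158, 820.1 and 3344 CPM in young larvae, against 0.343, 0.232 and 0.0277 CPM in the mixture (log2 change 13.36 ± 3.32, adjusted p = 0.00575). Late trypsin (13_Contig_88244), known from the blood-fed gut of female mosquitoes, had 25.6, 11.7 and 42.7 CPM in young larvae and no read in the mixture, at least 896-fold higher in young larvae (adjusted p = 0.0133). Young larva replicate 2 was again the lowest of the young larvae in these 3, and the groups did not overlap. Brachyurin (13_Contig_68037), a collagen-cleaving serine protease first known from crabs, had 212, 31.1 and 236 CPM in young larvae and 0, 0.058 and 0 CPM in the mixture, 7739-fold higher in young larvae with an exact 95% Poisson interval of 2142 to 63904 (adjusted p = 0.00234). Pancreatic triacylglycerol lipase (13_Contig_86345), which splits dietary fat, had 15.8, 2.73 and 24.9 CPM in young larvae and no read in the mixture, at least 477-fold higher in young larvae (adjusted p = 0.0178). The call of the lipase was lost when mixture replicate 1 or 3 was left out, and without a filter on low counts the calls of the glutathione S-transferase, late trypsin and the lipase were lost.

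The remaining 3 of the 10 largest rises had other roles. Derlin-1 (13_Contig_72694), which helps to clear misfolded proteins from the endoplasmic reticulum, had 44.1, 6.75 and 22.3 CPM in young larvae and no read in the mixture, at least 758-fold higher in young larvae (adjusted p = 0.00547). Uroporphyrinogen decarboxylase (First_Contig1977), an enzyme of haem synthesis, had 36.2, 5.13 and 23.6 CPM in young larvae and no read in the mixture, at least 679.7-fold higher in young larvae (adjusted p = 0.00525). Haustellum specific protein A (13_Contig_75952), named from fly mouthparts, had 66.1, 5.1 and 56.7 CPM in young larvae and 0, 0.029 and 0 CPM in the mixture, 4040.3-fold higher in young larvae with an exact 95% Poisson interval of 725 to 159607 (adjusted p = 0.00221). Young larva replicate 2 was the lowest of the young larvae in each, and at most 1 read was counted in the mixture.

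The 10 largest falls among arthropod hits included genes of chromatin, eggs and sperm. Histone H1 (13_Contig_411), which packs nucleosomes, had no read in young larvae and 582, 359.9 and 537 CPM in the mixture, at least 26044-fold lower in young larvae (adjusted p = 3.03e-10). The vitellogenin receptor (13_Contig_5313), which takes yolk protein into the oocyte, had no read in young larvae and 87.5, 46.1 and 75.2 CPM in the mixture, at least 3669-fold lower in young larvae (adjusted p = 7.22e-09). A sperm-tail PG-rich repeat protein (13_Contig_1196) had no read in young larvae and 95.9, 47 and 50.4 CPM in the mixture, at least 3365-fold lower in young larvae (adjusted p = 5.87e-09). Young larvae held no read of these 3, while every mixture library held many. Tankyrase (13_Contig_3233), which adds poly(ADP-ribose) to proteins, had no read in young larvae and 109.7, 95.2 and 111 CPM in the mixture, at least 5572-fold lower in young larvae (adjusted p = 5.14e-10). BTB/POZ domain-containing protein 6-A (13_Contig_3167) had 0, 0 and 0.0363 CPM in young larvae and 619, 449 and 593 CPM in the mixture, 43933-fold lower in young larvae with an exact 95% Poisson interval of 12161 to 362774 (adjusted p = 8.6e-10). The homologue of female sterile 1 homeotic (13_Contig_2953), a bromodomain protein of the fly that binds acetylated histones, had 0.0234, 0 and 0 CPM in young larvae and 81.3, 91.4 and 84.3 CPM in the mixture, 13628-fold lower in young larvae with an exact 95% Poisson interval of 2445 to 538347 (adjusted p = 1.08e-09). In these 3 the young larvae held at most 2 reads in all, and the mixture libraries lay close together.

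The other 4 of the 10 largest falls were less abundant or less well known. The putative extracellular protein tem7 (13_Contig_5159) had 0, 0 and 0.0182 CPM in young larvae and 156, 132 and 159 CPM in the mixture, 23729-fold lower in young larvae with an exact 95% Poisson interval of 4258 to 937291 (adjusted p = 3.49e-10). Serine protease inhibitor 16 (13_Contig_825) had no read in young larvae and 34.4, 15.7 and 31.3 CPM in the mixture, at least 1430.5-fold lower in young larvae (adjusted p = 9.26e-08). Young larvae held 1 and 0 reads of these. Plexin domain-containing protein 2 (13_Contig_9157) had no read in young larvae and 32.9, 18.2 and 27.5 CPM in the mixture, at least 1381-fold lower in young larvae (adjusted p = 7.63e-09). Phospholipase A2D (13_Contig_8599), a lipid-cleaving enzyme, had no read in young larvae and 22.1, 20.9 and 20.4 CPM in the mixture, at least 1117-fold lower in young larvae (adjusted p = 3.3e-09). All 10 had their highest stage mean in the subimago or imago.

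Hits from other animals gave changes of like size. Phospholipase A-2-activating protein (13_Contig_88304) had 51.2, 5.05 and 28 CPM in young larvae and no read in the mixture, at least 869-fold higher in young larvae (adjusted p = 0.00859). A WW domain-containing protein (13_Contig_74358) had 33, 4.64 and 11.4 CPM in young larvae and no read in the mixture, at least 499.8-fold higher in young larvae (adjusted p = 0.00482). A subunit of the ATP-dependent Clp protease (13_Contig_88398), known from bacteria and mitochondria, had 41.6, 3.89 and 12.2 CPM in young larvae and no read in the mixture, at least 578-fold higher in young larvae (adjusted p = 0.048). These were the 3 largest rises, with young larva replicate 2 the lowest each time, and the call of the Clp subunit was lost on leaving out any 1 of the 6 libraries. A putative bromodomain protein (13_Contig_1505) had no read in young larvae and 76.4, 58.5 and 83.9 CPM in the mixture, at least 3869.6-fold lower in young larvae (adjusted p = 4.53e-10). A hyperpolarization-activated potassium and sodium channel (13_Contig_306) had no read in young larvae and 24.6, 14.9 and 22.5 CPM in the mixture, at least 1092-fold lower in young larvae (adjusted p = 1.07e-08). A zinc finger protein (13_Contig_8890) had 0.0468, 0 and 0 CPM in young larvae and 67.6, 32.5 and 49.1 CPM in the mixture, 3917-fold lower in young larvae with an exact 95% Poisson interval of 1084 to 32356 (adjusted p = 5.57e-08). These were the 3 largest falls, with at most 2 reads in all 3 young larva libraries together.

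Further genes were described by 28 lists formed from words in the protein names, each to be read against the 29.1% of tested animal hits called higher, the 40.1% called lower and their median log2 change of -0.23. Several unigenes can be pieces or near copies of 1 gene, so members of a family are not independent. The share called higher lay near that of all tested animal hits, between 24.1% and 32.4%, in the lists of the peritrophic matrix, cuticle, ecdysteroids, sperm, light sensing, chemoreception, nervous system, fatty acids and chaperones. Those counts higher are no result about their members. The share called lower in the same lists ran from 10.5% for the peritrophic matrix to 44.6% for chaperones, beside 40.1% of all tested animal hits.

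**Figure D3:**
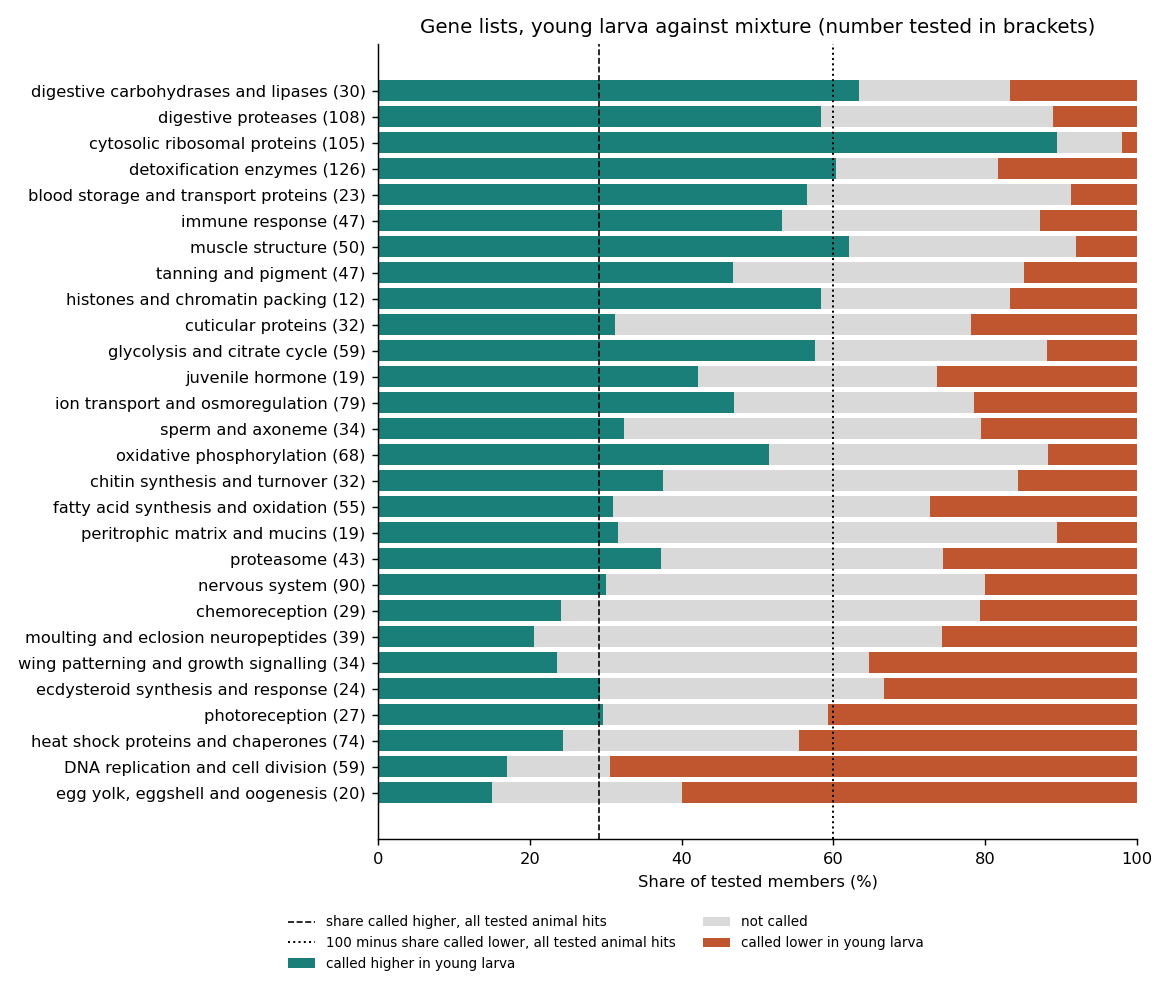
Share of the tested members of each gene list called higher in young larvae, not called and called lower, ordered by median log2 change, with dashed and dotted lines for all tested animal hits (29.1% higher and 40.1% lower). Ribosomal proteins have the largest share called higher (89.5%), followed by carbohydrases and lipases (63.3%), muscle (62.0%) and detoxification (60.3%), and the balance of the ecdysteroid, neuropeptide, wing and heat shock lists turns with library totals.

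Digestive enzymes were higher in young larvae as a group. Of 108 tested proteases, 63 were called higher and 12 lower, with a median log2 change of 3.05, and of 30 carbohydrases and lipases, 19 were called higher and 5 lower, with a median of 3.18. The summed level of the protease list was 9524, 2628 and 10217 CPM in young larvae, against 1291, 1231 and 1560 CPM in the mixture. Alpha-amylase (13_Contig_25969), which breaks down starch, had 2137, 166 and 1828 CPM in young larvae, against 1.68, 1.36 and 0.166 CPM in the mixture (log2 change 10.33 ± 2.74, adjusted p = 0.00809). Maltase H (First_Contig621), which splits maltose, had 332, 43.4 and 283 CPM in young larvae, against 0.343, 0.319 and 0.139 CPM in the mixture (log2 change 9.68 ± 2.16, adjusted p = 0.0031). A putative aminopeptidase N (13_Contig_15764), which trims peptides at the gut wall, had 836, 73.8 and 835 CPM in young larvae, against 1.87, 2.67 and 6.16 CPM in the mixture (log2 change 7.35 ± 1.60, adjusted p = 0.00258). Replicate 2 was the lowest young larva library in all 3 enzymes, and the groups did not overlap. The other larval stage did not share the high levels once mature larva replicate 1 was left out, for the 2 enzymes given here. Mature larva means were 209 CPM for alpha-amylase and 95.5 CPM for the aminopeptidase, and 0.362 and 12.5 CPM without that library. Members of the same families also ran the other way. A trypsin (13_Contig_3245) had 14.1, 1.83 and 12.4 CPM in young larvae, against 115, 112 and 118 CPM in the mixture (log2 change -3.61 ± 0.55, adjusted p = 0.000186). Its mature larva mean was 124 CPM, and 136 CPM without mature larva replicate 1. Aminopeptidase N-10 (13_Contig_4292) had 65, 74.1 and 69.9 CPM in young larvae, against 269, 198 and 291 CPM in the mixture (log2 change -1.86 ± 0.14, adjusted p = 3.15e-07). The called-higher proteases lay in young larva replicate 2 at a median of 25.9% of the mean of replicates 1 and 3, and the carbohydrases and lipases at 17.6%, beside 22.5% for hits outside animals. Their part in the result was not tested, and without replicate 2 the counts were 62 higher and 10 lower of 113 proteases and 19 and 4 of 30 carbohydrases and lipases. Without young larva replicate 1, the counts lower were 7 proteases and 3 carbohydrases and lipases, and the second of these was 2 without mixture replicate 3 and 3 without young larva replicate 3. With 1 unigene per protein name, 19 of 35 proteases were called higher and 8 lower, with a median of 1.98.

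The peritrophic matrix is a chitin sheet that lines the insect midgut. Of 19 peritrophic matrix proteins and mucins, 6 were called higher (31.6%) and 2 lower, with a median log2 change of 0.11. The summed level of the list overlapped between the groups, with 1486, 1122 and 1749 CPM in young larvae, against 1193, 1524 and 1851 CPM in the mixture. The count higher was 1, 2 and 3 without mixture replicates 1, 2 and 3, and 3 without young larva replicate 1 or 3. Peritrophic matrix protein 14 (13_Contig_36423) had 494, 113 and 496 CPM in young larvae, against 0.249, 0.058 and 0.111 CPM in the mixture (log2 change 11.35 ± 2.74, adjusted p = 0.00496). A second unigene of that name (13_Contig_9367) had 195, 93 and 154 CPM in young larvae, against 14.6, 16.5 and 2.27 CPM in the mixture (log2 change 3.72 ± 1.23, adjusted p = 0.0234). Its call was lost without a filter on low counts, without any 1 of the mixture libraries and without young larva replicate 1. Putative salivary secreted mucin 3 (13_Contig_4509) had 128, 108 and 99.3 CPM in young larvae, against 169, 196 and 193 CPM in the mixture (log2 change -0.73 ± 0.13, adjusted p = 0.000446). The fall of the mucin was lost with library totals and with arthropod-hit TMM factors.

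Detoxification enzymes followed the digestive ones in direction. Of 126 tested cytochrome P450s, glutathione, glucuronosyl and sulfo transferases and carboxylesterases, 76 were called higher and 23 lower, with a median log2 change of 2.09. A mitochondrial cytochrome P450 of the 301a1 type (13_Contig_10173) had 168, 73.1 and 194 CPM in young larvae, against 15.7, 16.5 and 8.87 CPM in the mixture (log2 change 3.41 ± 0.72, adjusted p = 0.00224). A glutathione S-transferase (13_Contig_8292) had 146, 72.7 and 168 CPM in young larvae, against 33.1, 26 and 34.6 CPM in the mixture (log2 change 2.04 ± 0.29, adjusted p = 7.52e-05). A second sigma-class glutathione S-transferase (13_Contig_8778) had 213, 88.1 and 235 CPM in young larvae, against 11.8, 20.4 and 5.66 CPM in the mixture (log2 change 3.82 ± 1.04, adjusted p = 0.00919). All 3 were higher in every young larva library, again with replicate 2 lowest. Another cytochrome P450 (13_Contig_2478) had 19.7, 21 and 18.6 CPM in young larvae, against 235, 175 and 227 CPM in the mixture (log2 change -3.43 ± 0.22, adjusted p = 5.7e-08). A carboxylesterase (13_Contig_8147) had 12.6, 4.02 and 7.38 CPM in young larvae, against 46.1, 84.7 and 73 CPM in the mixture (log2 change -3.09 ± 0.46, adjusted p = 0.000149). These 2 lay lower in every young larva library. The called-higher enzymes had a median of 39.9% in young larva replicate 2 relative to replicates 1 and 3.

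Immune genes were more often higher than lower. Of 47 tested, 25 were called higher and 6 lower, with a median log2 change of 1.90, and the counts were 16 and 6 without mixture replicate 1 and 15 and 5 without mixture replicate 2. A peptidoglycan recognition protein of the SC2 type (13_Contig_32731), a family that binds and in the fly degrades bacterial cell wall, had 497, 95.9 and 477 CPM in young larvae, against 0.654, 0.058 and 0.111 CPM in the mixture (log2 change 10.35 ± 2.69, adjusted p = 0.0073). Replicate 2 was again low among the young larvae. Toll (13_Contig_12415), the receptor of the Toll pathway, had 85.8, 95.3 and 90.5 CPM in young larvae, against 3.74, 9.16 and 7.07 CPM in the mixture (log2 change 3.76 ± 0.44, adjusted p = 1.42e-05). Spaetzle (13_Contig_11064), the ligand of Toll in the fly, had 102, 163 and 126 CPM in young larvae, against 27.6, 33.4 and 26.2 CPM in the mixture (log2 change 2.16 ± 0.26, adjusted p = 2.29e-05). In these 2 the young larva replicates lay close together and above the mixture. A Toll-7-like receptor (13_Contig_1055) had 29.2, 31.1 and 32.8 CPM in young larvae, against 100.03, 68.6 and 101 CPM in the mixture (log2 change -1.53 ± 0.18, adjusted p = 1.41e-05). Relish (13_Contig_9287), the NF-kappaB factor of the fly's Imd pathway, had 29.9, 25.1 and 28.9 CPM in young larvae, against 63.5, 62.4 and 69.8 CPM in the mixture (log2 change -1.22 ± 0.12, adjusted p = 2.66e-06). Both lay below the mixture in every young larva library.

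Storage and transport proteins of the blood were higher in young larvae. Of 23 tested, 13 were called higher and 2 lower, with a median log2 change of 2.03. The median was 1.21, 0.91 and 1.00 without young larva replicates 1, 2 and 3, and 1.30 without mixture replicate 2. The summed level of the list was 17752, 19959 and 22519 CPM in young larvae, against 1596, 1870 and 2642 CPM in the mixture. Hexamerin 1 (13_Contig_210), a storage protein that larvae of many insects build up before metamorphosis, had 11685, 12978 and 14295 CPM in young larvae, against 303, 543 and 196 CPM in the mixture (log2 change 5.22 ± 1.05, adjusted p = 0.00151). Apolipophorin (13_Contig_2402), the lipid carrier of the blood, had 2394, 2321 and 3013 CPM in young larvae, against 348, 234 and 240.2 CPM in the mixture (log2 change 3.23 ± 0.75, adjusted p = 0.00394). Apolipoprotein D (13_Contig_3452), a lipocalin that binds small lipids, had 1792, 2697 and 2364 CPM in young larvae, against 45.8, 55.7 and 15.5 CPM in the mixture (log2 change 5.87 ± 1.41, adjusted p = 0.00483). In these the 3 young larva replicates lay close together and well above the mixture. Soma ferritin (13_Contig_736), an iron store, had 105, 39.4 and 144 CPM in young larvae, against 457, 521 and 367 CPM in the mixture (log2 change -2.22 ± 0.52, adjusted p = 0.00423). The called-higher members lay in young larva replicate 2 at a median of 99.7% of replicates 1 and 3. With 1 unigene per protein name, 4 of 10 were called higher and 1 lower, with a median of 0.30.

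Cuticle genes split by member and by mixture library. Of 32 cuticular proteins, 10 were called higher and 7 lower, with a median log2 change of 0.88. The counts were 6 and 4 without mixture replicate 1, 4 and 8 without mixture replicate 3, and 5 and 6 without young larva replicate 1. A cuticle protein (13_Contig_2062) had 5.52, 5.79 and 6.27 CPM in young larvae, against 273, 180.4 and 25.2 CPM in the mixture (log2 change -4.76 ± 0.79, adjusted p = 0.000351). The adult-specific cuticular protein ACP-20 (13_Contig_25170) had 34.1, 33.9 and 47.8 CPM in young larvae, against 462, 351 and 63.8 CPM in the mixture (log2 change -2.92 ± 0.72, adjusted p = 0.00571). CPR67Bc, a cuticular protein of the Rebers and Riddiford family (13_Contig_1860) had 24, 21.3 and 26.6 CPM in young larvae, against 246, 190.5 and 33.5 CPM in the mixture (log2 change -2.71 ± 0.68, adjusted p = 0.00631). In each of these, mixture replicate 3 lay far below replicates 1 and 2, and all 3 had by far their highest stage mean in the subimago. A putative insect cuticle protein (13_Contig_10166) had 329.5, 265 and 161 CPM in young larvae, against 80.3, 65.6 and 38.9 CPM in the mixture (log2 change 2.03 ± 0.52, adjusted p = 0.00673).

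Chitin and tanning genes also depended on single libraries and on copies. Of 32 genes of chitin synthesis and turnover, 12 were called higher and 5 lower, with a median log2 change of 0.44. The median was 2.16 without mixture replicate 3 and 0.72 without mixture replicate 1, and with 1 unigene per protein name 4 of 15 were called higher and 1 lower. The 12 members called higher lay in young larva replicate 2 at a median of 26.4% of the mean of replicates 1 and 3. A chitinase, which breaks down the old cuticle at a moult (13_Contig_914) had 571, 776 and 1085 CPM in young larvae, against 62.3, 71.1 and 499 CPM in the mixture (log2 change 1.94 ± 0.68, adjusted p = 0.03). Mixture replicate 3 held far more of it than replicates 1 and 2, and the call was lost on leaving out mixture replicate 1 or 2 or young larva replicate 2 or 3. Chitin synthase (13_Contig_3176), which spins chitin at the cell surface, had 36.2, 48.5 and 45.3 CPM in young larvae, against 86.7, 102 and 64.8 CPM in the mixture (log2 change -0.96 ± 0.27, adjusted p = 0.00942). That fall was lost with library totals and with arthropod-hit TMM factors. UDP-N-acetylglucosamine pyrophosphorylase (13_Contig_1928), which makes the sugar nucleotide for chitin, had 82.8, 77 and 93.4 CPM in young larvae, against 181, 154 and 152 CPM in the mixture (log2 change -0.94 ± 0.11, adjusted p = 1.4e-05). That call too was lost with library totals. Of 47 tanning and pigment genes, 22 were called higher and 7 lower, with a median log2 change of 1.56, but with 1 unigene per protein name 4 were called higher and 5 lower of 18, with a median of -0.67. Without young larva replicate 3 the median over all 47 was 0.78. Laccase-4 (13_Contig_2989), a multicopper oxidase of a family that tans insect cuticle, had 255, 208 and 209.96 CPM in young larvae, against 44.7, 39.1 and 16.6 CPM in the mixture (log2 change 2.74 ± 0.46, adjusted p = 0.000418). Yellow (13_Contig_23897), a pigment protein of the fly, had 81.7, 94.1 and 106 CPM in young larvae, against 0.779, 0.87 and 0.166 CPM in the mixture (log2 change 7.28 ± 1.70, adjusted p = 0.00404). A second yellow unigene (13_Contig_11132) had 82.5, 86.8 and 171 CPM in young larvae, against 0.904, 1.65 and 0.555 CPM in the mixture (log2 change 6.77 ± 1.48, adjusted p = 0.00264). The groups did not overlap in any of the 3. Tryptophan 2,3-dioxygenase (13_Contig_2066), the entry enzyme of eye pigment synthesis, had 39.5, 37.8 and 45.9 CPM in young larvae, against 94.4, 78.3 and 87.9 CPM in the mixture (log2 change -1.08 ± 0.15, adjusted p = 6.34e-05). Arylalkylamine N-acetyltransferase (13_Contig_3553), which acetylates dopamine in insects, had 67.6, 83.2 and 69.1 CPM in young larvae, against 122, 100.4 and 134 CPM in the mixture (log2 change -0.70 ± 0.13, adjusted p = 0.000935). Both falls were lost with library totals.

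Hormone genes were called in both directions. Of 24 genes of ecdysteroid synthesis and response, 7 were called higher and 8 lower, with a median log2 change of -0.14, which turned to 10 higher and 6 lower with library totals and 8 and 7 with arthropod-hit TMM factors. The median was 0.17 without mixture replicate 3. Ecdysone 20-monooxygenase (13_Contig_3366), which makes the active moulting hormone, had 0.0468, 0.163 and 0.0727 CPM in young larvae, against 122, 88.3 and 117 CPM in the mixture (log2 change -10.09 ± 0.43, adjusted p = 2.2e-09). Young larvae held 16 reads of it in all, against 11208 in the mixture. Unigenes of the Broad complex, a family of zinc finger factors switched by ecdysone, ran in opposite directions. The Z3 isoform unigene (13_Contig_15337) had 216, 186 and 196 CPM in young larvae, against 28.9, 41.7 and 15.1 CPM in the mixture (log2 change 2.80 ± 0.54, adjusted p = 0.0011). The Z1 isoform unigene (13_Contig_3631) had 79.2, 80.3 and 91 CPM in young larvae, against 15.1, 17.9 and 7.63 CPM in the mixture (log2 change 2.62 ± 0.51, adjusted p = 0.00113). Both lay above the mixture in every young larva library. The isoform 6 unigene (13_Contig_1375) had 19.2, 24.7 and 18.8 CPM in young larvae, against 84.7, 75.9 and 145 CPM in the mixture (log2 change -2.28 ± 0.32, adjusted p = 8.35e-05). The core unigene of isoforms 1 to 5 (13_Contig_5238) had 37.7, 36.3 and 39.7 CPM in young larvae, against 157, 112 and 149 CPM in the mixture (log2 change -1.88 ± 0.14, adjusted p = 2.86e-07). Both lay below it. How reads were split between Broad unigenes that share sequence is not given in the sources used here.

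Of 19 juvenile hormone genes, 8 were called higher and 5 lower, with a median log2 change of 0.67. The counts were 5 and 3 without mixture replicate 1 and 7 and 3 without young larva replicate 3, and the median was 0.35 without young larva replicate 2. Juvenile hormone epoxide hydrolase 1 (13_Contig_19816), which breaks the hormone down, had 43.7, 17.4 and 55.1 CPM in young larvae, against 3.52, 3.63 and 4.1 CPM in the mixture (log2 change 3.37 ± 0.53, adjusted p = 0.000227). Methoprene-tolerant (13_Contig_51), the juvenile hormone receptor, had 200.04, 145 and 175 CPM in young larvae, against 288, 239 and 262 CPM in the mixture (log2 change -0.60 ± 0.16, adjusted p = 0.00763). The call of the receptor was lost with library totals, DESeq2 or its size factors, and arthropod-hit TMM factors. Takeout (13_Contig_8287), a secreted protein linked to feeding and the clock in the fly, had 2.32, 1.88 and 1.69 CPM in young larvae, against 19, 13.6 and 649 CPM in the mixture (log2 change -6.86 ± 1.80, adjusted p = 0.00771). Mixture replicate 3 set that mean, and without it the log2 change was -2.91 and the call was lost. A list of moulting and eclosion neuropeptides, their receptors and every protein with insulin-like in its name held 39 tested unigenes, of which 8 were called higher and 10 lower, with a median log2 change of -0.08, which turned to 11 higher and 6 lower with either library totals or arthropod-hit TMM factors. The count higher was 3 and 4 without mixture replicates 1 and 2, and 5 without young larva replicate 3. The members named here are no neuropeptides. The insulin-like growth factor 2 mRNA-binding protein (13_Contig_1430), which steers mRNA transport and translation, had 24.1, 21.2 and 24.6 CPM in young larvae, against 139, 87.2 and 129 CPM in the mixture (log2 change -2.35 ± 0.18, adjusted p = 3.84e-07). The insulin-like peptide receptor (13_Contig_108) had 100.3, 93.7 and 108 CPM in young larvae, against 59.5, 57 and 67 CPM in the mixture (log2 change 0.72 ± 0.20, adjusted p = 0.0108). The second of these calls was lost without mixture replicate 1 or 2.

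Genes of egg formation were lower in young larvae. Of 20 tested, 12 were called lower and 3 higher, with a median log2 change of -2.52, and the counts were 12 and 4 under both library totals and arthropod-hit TMM factors. With 1 unigene per protein name, 9 of 12 were called lower and 0 higher. The summed level of the list was 221, 251 and 313 CPM in young larvae, against 3463, 2480 and 3333 CPM in the mixture. Vitellogenin (13_Contig_814), the yolk precursor, had 0.0936, 0.163 and 0.236 CPM in young larvae, against 727, 611 and 832 CPM in the mixture (log2 change -12.06 ± 0.54, adjusted p = 3.63e-09). Bicaudal C (13_Contig_854), which binds mRNAs in the oocyte, had 0.374, 0.474 and 0.654 CPM in young larvae, against 1369, 832 and 1144 CPM in the mixture (log2 change -11.11 ± 0.48, adjusted p = 2.52e-09). Oskar (13_Contig_1990), which assembles germ plasm in the fly, had 4.91, 5.64 and 8.7 CPM in young larvae, against 305, 219 and 295 CPM in the mixture (log2 change -5.41 ± 0.28, adjusted p = 9.67e-09). Young larvae were lower in every library for all 3. A piwi-like protein (13_Contig_22908), of the germline pathway that silences transposons, had 30.5, 32.4 and 72.4 CPM in young larvae, against 0.935, 0.928 and 1.11 CPM in the mixture (log2 change 5.50 ± 0.90, adjusted p = 0.000296). The mixture mean of vitellogenin also exceeded the means of every later stage, which were 197 ± 89.8, 191 ± 46.3 and 324 ± 87 CPM in mature larva, subimago and imago (SD, n = 3 each), with 209.6 CPM in mature larva without replicate 1.

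**Figure D4:**
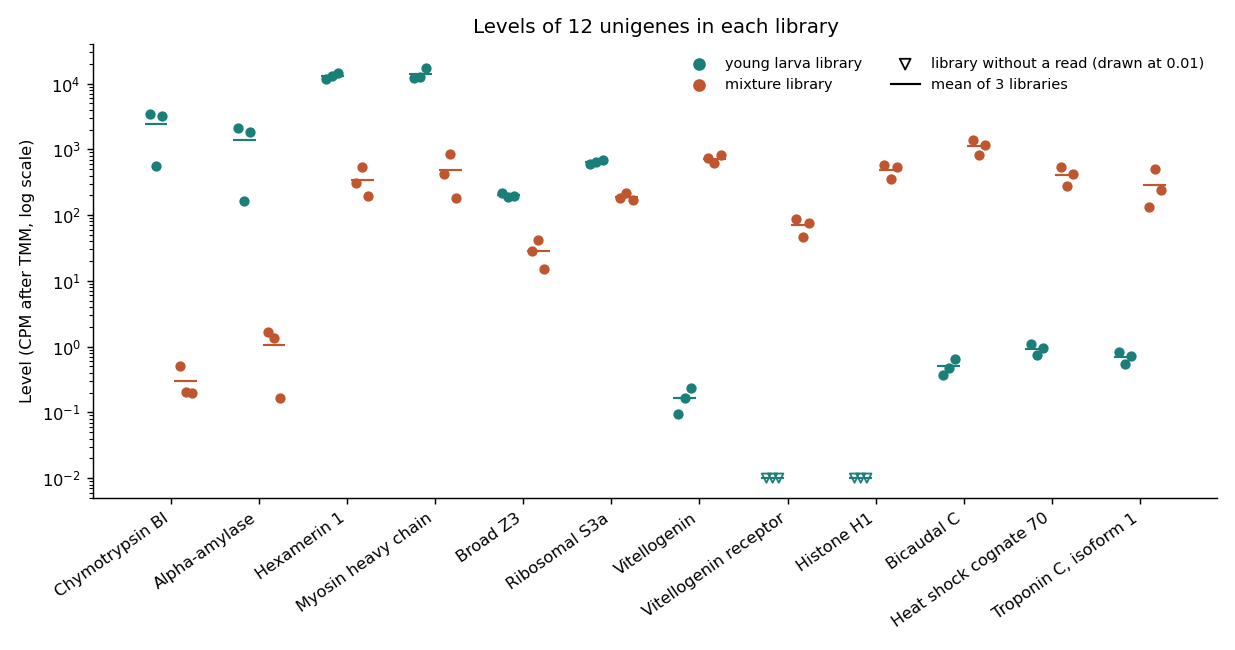
Level (CPM after TMM, log scale) of 12 unigenes in each young larva library and each mixture library, with bars at the mean of 3 libraries. Digestive, storage, muscle, Broad Z3 and ribosomal S3a unigenes lie above the mixture in every young larva library, and vitellogenin, its receptor, histone H1, Bicaudal C, heat shock cognate 70 and troponin C isoform 1 below it.

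Genes of sperm and cilia showed no common direction. Of 34 tested, 11 were called higher and 7 lower, with a median log2 change of 0.56, and the count higher was 7 without any 1 of the mixture libraries and without young larva replicate 1. Tektin-3 (13_Contig_10224), a filament protein of cilia and sperm tails, had 20.9, 17.4 and 23.2 CPM in young larvae, against 14, 11.7 and 13.4 CPM in the mixture (log2 change 0.65 ± 0.15, adjusted p = 0.00317). Intraflagellar transport protein 140 (13_Contig_1235) had 93, 84.1 and 82.3 CPM in young larvae, against 431, 260.3 and 378 CPM in the mixture (log2 change -2.04 ± 0.21, adjusted p = 4.67e-06). The groups did not overlap in either. Outer dense fiber protein 3 (13_Contig_6302), a protein of sperm tails in mammals, had 52.7, 80 and 54 CPM in young larvae, against 25.6, 26.7 and 42.1 CPM in the mixture (log2 change 0.98 ± 0.38, adjusted p = 0.0412). Its call was lost on leaving out mixture replicate 1 or 2 or any 1 young larva library.

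Cell division genes were mostly lower in young larvae. Of 59 genes of DNA replication and cell division, 41 were called lower and 10 higher, with a median log2 change of -1.67. Among arthropod hits alone, 38 were called lower and 4 higher of 50. Aurora borealis (13_Contig_5100), which activates the Aurora A kinase in the fly, had 16.2, 6.21 and 4.72 CPM in young larvae, against 139, 121 and 165 CPM in the mixture (log2 change -3.97 ± 0.42, adjusted p = 7.18e-06). The abnormal spindle protein (13_Contig_2362) had 27.6, 22.2 and 22.7 CPM in young larvae, against 142, 87.2 and 103 CPM in the mixture (log2 change -2.20 ± 0.22, adjusted p = 3.99e-06). Both lay lower in every young larva library. CDC45 (13_Contig_6492), a part of the replicative helicase, had 78.9, 72.8 and 90.7 CPM in young larvae, against 113, 94.8 and 93.6 CPM in the mixture (log2 change -0.32 ± 0.13, adjusted p = 0.0496). The direction of CDC45 turned with library totals and with arthropod-hit TMM factors, so it sets no direction. Of the 10 members called higher, 4 were arthropod hits. A cyclin B with a hit from another animal (13_Contig_44787) had 149, 16 and 61.2 CPM in young larvae, against 0.187, 0.232 and 0.139 CPM in the mixture (log2 change 8.65 ± 2.36, adjusted p = 0.0118). That call was lost without a filter on low counts and without mixture replicate 1 or 3. The licensing factor mcm4 with a hit from another animal (First_Contig1919) had 112, 14.9 and 71.7 CPM in young larvae, against 0.187, 0.087 and 0.194 CPM in the mixture (log2 change 8.71 ± 2.25, adjusted p = 0.0071). The 10 members called higher lay in young larva replicate 2 at a median of 22.3% of replicates 1 and 3. The GINS subunit PSF3 (13_Contig_4166), of the replicative helicase, had 1197, 954 and 1195 CPM in young larvae, against 97.7, 83.7 and 173 CPM in the mixture (log2 change 3.24 ± 0.58, adjusted p = 0.000665). Young larva replicate 2 held nearly as much of PSF3, also a hit from another animal, as replicates 1 and 3. Of 12 histone genes, 7 were called higher and 2 lower, with a median log2 change of 0.89. The count higher was 2 and 3 without mixture replicates 1 and 2, and 4 without young larva replicate 1 or 3. Histone H3 (13_Contig_2592) had 247, 249.8 and 261 CPM in young larvae, against 213, 214 and 198 CPM in the mixture (log2 change 0.28 ± 0.07, adjusted p = 0.00578). The call of histone H3 was lost without mixture replicate 1. Histone H1, given above, was without a read in young larvae.

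Muscle genes were higher in young larvae. Of 50 tested, 31 were called higher and 4 lower, with a median log2 change of 1.77, and the summed level of the list was 36930, 38870 and 51823 CPM in young larvae, against 2969, 4877 and 2253 CPM in the mixture. Muscle myosin heavy chain (Second_Contig9), the motor of the thick filament, had 12041, 12617 and 17452 CPM in young larvae, against 424, 851 and 182 CPM in the mixture (log2 change 4.85 ± 0.68, adjusted p = 9.38e-05). Myosin light chain 2 (First_Contig1743) had 9192, 10927 and 12535 CPM in young larvae, against 370.3, 823 and 248 CPM in the mixture (log2 change 4.50 ± 0.72, adjusted p = 0.00026). The alkali myosin light chain (13_Contig_709) had 2905, 3419 and 4197 CPM in young larvae, against 144, 248 and 83.6 CPM in the mixture (log2 change 4.47 ± 0.68, adjusted p = 0.000172). In all 3 the young larva replicates lay close together, and mixture replicate 2 was the highest of the mixture. Troponin C isoform 1 (13_Contig_6848), which binds calcium to start contraction, had 0.819, 0.54 and 0.727 CPM in young larvae, against 133, 501 and 238 CPM in the mixture (log2 change -8.71 ± 0.64, adjusted p = 3e-07). This unigene ran against the list, with a mixture mean above every stage mean of the series.

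Wing and growth signalling genes gave no firm balance, since 8 of 34 were called higher and 12 lower, with a median log2 change of -0.09, against 12 higher and 7 lower with library totals and 11 and 10 with arthropod-hit TMM factors. The count higher was 5 without mixture replicate 1. Ultrabithorax (13_Contig_14326), the homeotic factor of the hind thorax, had 26.5, 35.7 and 31 CPM in young larvae, against 7.35, 6.67 and 8.62 CPM in the mixture (log2 change 2.04 ± 0.27, adjusted p = 5.01e-05). Scalloped (13_Contig_1139), a partner of the wing selector vestigial in the fly, had 83.1, 81.3 and 78.4 CPM in young larvae, against 223, 176 and 213 CPM in the mixture (log2 change -1.33 ± 0.11, adjusted p = 6.78e-07). Both separated the groups without overlap. A homolog of mothers against decapentaplegic (13_Contig_2839), of the family that carries TGF-beta signals into the nucleus, had 96.5, 93 and 98.4 CPM in young larvae, against 68.6, 76.6 and 70.6 CPM in the mixture (log2 change 0.42 ± 0.09, adjusted p = 0.00306). That call was lost without mixture replicate 1.

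Light-sensing genes were called in shares close to those of all tested animal hits. Of 27 photoreception genes, 8 were called higher (29.6%) and 11 lower (40.7%), with a median log2 change of -0.56 and, with library totals, 10 called each way and a median of 0.04. The median was -0.34 and -0.26 without mixture replicates 1 and 3. A rhodopsin (13_Contig_1132), a visual pigment, had 1745, 2018 and 1496 CPM in young larvae, against 370.4, 283 and 651 CPM in the mixture (log2 change 2.01 ± 0.34, adjusted p = 0.00041). Opsin-1 (13_Contig_874) had 651, 666 and 527 CPM in young larvae, against 20.3, 23.8 and 24.3 CPM in the mixture (log2 change 4.75 ± 0.67, adjusted p = 9.19e-05). Both visual pigments lay above the mixture in every young larva library. Twin of eyeless (13_Contig_1354), a Pax6 factor of eye formation, had 43.3, 40.7 and 42.4 CPM in young larvae, against 414, 238 and 342 CPM in the mixture (log2 change -2.97 ± 0.24, adjusted p = 4.63e-07). Eyes absent (13_Contig_6639), a further factor of eye formation in the fly, had 19.9, 24.7 and 17.9 CPM in young larvae, against 98.6, 57.4 and 100.4 CPM in the mixture (log2 change -2.03 ± 0.25, adjusted p = 2.3e-05). Chaoptin (13_Contig_2991), a membrane protein of photoreceptor cells, had 19.4, 25.9 and 18.5 CPM in young larvae, against 40.1, 40.3 and 118 CPM in the mixture (log2 change -1.64 ± 0.48, adjusted p = 0.0128). All 3 lay below the mixture, and the call of chaoptin was lost without mixture replicate 3 and with library totals.

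Of 29 chemoreception genes, 7 were called higher and 6 lower, with a median log2 change of 0.01, and the counts were 6 and 8 without mixture replicate 2 and 5 and 3, with a median of 0.91, without mixture replicate 1. Odorant binding protein 11 (13_Contig_26336), a carrier of small hydrophobic molecules, had 8.07, 7.46 and 6.87 CPM in young larvae, against 1.9, 2.44 and 2.52 CPM in the mixture (log2 change 1.71 ± 0.36, adjusted p = 0.00202). A gustatory receptor of the trehalose 1 type (13_Contig_5409) had 5.66, 5.54 and 7.05 CPM in young larvae, against 52.4, 38.4 and 52.9 CPM in the mixture (log2 change -2.98 ± 0.21, adjusted p = 1.71e-07). A chemosensory binding protein (13_Contig_7993) had 18.6, 11.2 and 13.1 CPM in young larvae, against 36.7, 37.1 and 601 CPM in the mixture (log2 change -3.98 ± 0.99, adjusted p = 0.00594). Mixture replicate 3 set the mean of the binding protein, and without it the log2 change was -1.24 and the call was lost. Of 90 genes of the nervous system, 27 were called higher and 18 lower, with a median log2 change of 0.04, and without mixture replicate 1 the counts were 17 and 18. Octopamine beta receptor 3 (13_Contig_1842), a receptor of the insect counterpart of noradrenaline, had 25.9, 31.4 and 27.4 CPM in young larvae, against 76.4, 65.3 and 78.8 CPM in the mixture (log2 change -1.38 ± 0.11, adjusted p = 5.52e-07). A nicotinic acetylcholine receptor (13_Contig_7151), of fast excitation, had 28.8, 36.8 and 28.1 CPM in young larvae, against 83.6, 74.1 and 70.3 CPM in the mixture (log2 change -1.28 ± 0.18, adjusted p = 6.5e-05). An ionotropic glutamate receptor (13_Contig_724) had 97, 118 and 108 CPM in young larvae, against 77.3, 83.6 and 59.4 CPM in the mixture (log2 change 0.55 ± 0.13, adjusted p = 0.00484). Each change was under 3-fold.

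Genes of oxidative phosphorylation, glycolysis and the citrate cycle were more often called higher than lower. Of 68 genes of oxidative phosphorylation, 35 were called higher and 8 lower, with a median log2 change of 0.55, or 0.35 without young larva replicate 3. The summed level of this list overlapped between the groups. It was 17129, 17604 and 19795 CPM in young larvae, against 14069, 19215 and 11527 CPM in the mixture. The 35 members called higher lay in young larva replicate 2 at a median of 79.2% of the mean of replicates 1 and 3. Their lower quartile was 18.5%. The beta subunit of ATP synthase (13_Contig_2651), which carries the catalytic sites, had 885, 925 and 1068 CPM in young larvae, against 269.8, 545 and 136 CPM in the mixture (log2 change 1.60 ± 0.40, adjusted p = 0.00615). Its alpha subunit (13_Contig_574) had 772, 714 and 937 CPM in young larvae, against 327, 435 and 242 CPM in the mixture (log2 change 1.27 ± 0.21, adjusted p = 0.00037). Mixture replicate 2 was the highest mixture library for both, still below the young larvae. A beta subcomplex subunit of NADH dehydrogenase (13_Contig_2010) had 119, 155 and 159 CPM in young larvae, against 338, 618 and 196 CPM in the mixture (log2 change -1.41 ± 0.35, adjusted p = 0.0057). Of 59 genes of glycolysis and the citrate cycle, 34 were called higher and 7 lower, with a median log2 change of 0.80. Their summed level was 7701, 5008 and 7995 CPM in young larvae, against 3031, 3393 and 2770 CPM in the mixture. The 34 members called higher lay in young larva replicate 2 at a median of 66.3% of the mean of replicates 1 and 3. Their lower quartile was 20.6%. Glyceraldehyde-3-phosphate dehydrogenase (13_Contig_2955), of the middle of glycolysis, had 973, 941 and 1364 CPM in young larvae, against 189.5, 223 and 157 CPM in the mixture (log2 change 2.53 ± 0.24, adjusted p = 2.11e-06). Enolase (13_Contig_5673) had 509, 516 and 744 CPM in young larvae, against 106, 122 and 93.3 CPM in the mixture (log2 change 2.46 ± 0.24, adjusted p = 3e-06). Both glycolytic enzymes lay above the mixture in every young larva library. Hexokinase (13_Contig_2376), which feeds glucose into the path, had 137, 149.7 and 166 CPM in young larvae, against 237, 204 and 215 CPM in the mixture (log2 change -0.53 ± 0.10, adjusted p = 0.00089). The change of hexokinase turned to 0.03 with library totals. Of 55 genes of fatty acid synthesis and oxidation, 17 were called higher and 15 lower, with a median log2 change of 0.15, and the count higher was 11 without mixture replicate 1. Carnitine O-palmitoyltransferase 1 (13_Contig_1070), the gate of fatty acid entry into mitochondria, had 154, 175 and 172 CPM in young larvae, against 374, 383 and 361 CPM in the mixture (log2 change -1.16 ± 0.13, adjusted p = 1.29e-05). Very long-chain acyl-CoA dehydrogenase (13_Contig_274), of fatty acid oxidation, had 256, 252 and 294 CPM in young larvae, against 624, 586 and 415 CPM in the mixture (log2 change -1.02 ± 0.18, adjusted p = 0.000647). The calls of the acyl-CoA dehydrogenase and of the NADH dehydrogenase subunit were lost with library totals. A protein for the elongation of very long chain fatty acids (13_Contig_1708) had 159.7, 183 and 191 CPM in young larvae, against 126, 104 and 149.9 CPM in the mixture (log2 change 0.49 ± 0.15, adjusted p = 0.0149). That call was lost on leaving out mixture replicate 1 or 2 or young larva replicate 2 or 3.

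Ion pumps were more often higher than lower. Of 79 genes of ion transport and osmoregulation, 37 were called higher and 17 lower, with a median log2 change of 0.64. The alpha subunit of the sodium pump (13_Contig_504), which drives salt uptake in freshwater insects, had 1219, 1552 and 1309 CPM in young larvae, against 741, 859.6 and 801 CPM in the mixture (log2 change 0.76 ± 0.16, adjusted p = 0.00153). Its beta2 subunit (13_Contig_4506) had 325, 392 and 413 CPM in young larvae, against 239, 243 and 199.8 CPM in the mixture (log2 change 0.73 ± 0.14, adjusted p = 0.000822). Both lay above the mixture in every young larva library, by less than 2-fold. A putative epithelial chloride channel (13_Contig_992) had 42.1, 44.6 and 41.1 CPM in young larvae, against 522, 363 and 523 CPM in the mixture (log2 change -3.46 ± 0.20, adjusted p = 3.01e-08).

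Ribosomal proteins had the largest share of calls higher of the 28 lists. Of 105 tested cytosolic ribosomal proteins, 94 were called higher and 2 lower, with a median log2 change of 2.13, and among 86 arthropod hits 76 were called higher and 2 lower. The summed level of the list was 22395, 21150 and 24456 CPM in young larvae, against 5151, 7178 and 5062 CPM in the mixture. Ribosomal protein S3a (13_Contig_3022), of the small subunit, had 605, 648 and 681 CPM in young larvae, against 179.9, 214 and 172 CPM in the mixture (log2 change 1.77 ± 0.10, adjusted p = 1.82e-08). Ribosomal protein S2 (13_Contig_824) had 678, 907 and 772 CPM in young larvae, against 164, 251 and 199 CPM in the mixture (log2 change 1.94 ± 0.15, adjusted p = 4.85e-07). Library totals left 94 higher and 1 lower. One L19 unigene (13_Contig_3580) had 11.3, 11.9 and 11.4 CPM in young larvae, against 21, 20.6 and 19.9 CPM in the mixture (log2 change -0.83 ± 0.13, adjusted p = 0.000193). That fall was lost with library totals.

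Of 74 heat shock proteins and chaperones, 33 were called lower (44.6%) and 18 higher (24.3%), close to the shares of all tested animal hits, and their median log2 change was -0.67. Library totals gave 19 called lower and 23 higher. The count higher was 11, 9 and 10 without mixture replicates 1, 2 and 3. The heat shock cognate 70 unigene (13_Contig_364), a chaperone of normal cells, had 1.1, 0.752 and 0.945 CPM in young larvae, against 531, 277 and 419.7 CPM in the mixture (log2 change -8.78 ± 0.39, adjusted p = 3.14e-09). Heat shock protein 70-p1 (13_Contig_219), a stress chaperone, had 7.51, 6.34 and 6.38 CPM in young larvae, against 788, 771 and 696 CPM in the mixture (log2 change -6.80 ± 0.28, adjusted p = 1.9e-09). Heat shock protein 90 (13_Contig_1731), which matures kinases and receptors, had 159, 127 and 146 CPM in young larvae, against 525, 468 and 512 CPM in the mixture (log2 change -1.80 ± 0.26, adjusted p = 0.000119). In these the groups lay apart without overlap, and each had its highest stage mean in the imago. The epsilon subunit of the TCP-1 chaperonin (13_Contig_830), which folds actin and tubulin, had 205, 191 and 192 CPM in young larvae, against 138, 117 and 135 CPM in the mixture (log2 change 0.59 ± 0.10, adjusted p = 0.000488). The proteasome, which degrades tagged proteins, gave 16 of 43 subunits called higher and 11 lower, with a median log2 change of 0.06. Without mixture replicate 1 the counts were 10 each way, and with library totals 26 higher and 2 lower. The 16 subunits called higher lay in young larva replicate 2 at a median of 44.0% of the mean of replicates 1 and 3. Proteasome activator subunit 4 (13_Contig_1611) had 61.1, 49.7 and 62.3 CPM in young larvae, against 209.97, 203 and 214 CPM in the mixture (log2 change -1.86 ± 0.14, adjusted p = 3.4e-07). The regulatory ATPase Rpt5 (13_Contig_4635) had 101, 61.1 and 85 CPM in young larvae, against 59.6, 58.8 and 61.2 CPM in the mixture (log2 change 0.46 ± 0.15, adjusted p = 0.0207). The groups overlapped for Rpt5, and its call was lost on leaving out mixture replicate 1 or 2 or young larva replicate 1 or 3.

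Profiles over the later stages, which are not among the 6 compared libraries, differed among the unigenes called lower. Of these 5394, the highest mean among mature larva, subimago and imago was in the imago for 64.9%, beside 38.9% of all 13442 tested, and in the mature larva for 6.71%, beside 40.2%. Without mature larva replicate 1 these shares were 64.2%, beside 41.5%, and 8.69%, beside 35%. The mixture mean lay between the lowest and the highest mean of the 4 stages for 12247 of the 13442 (91.1%), and for 12423 (92.4%) without mature larva replicate 1. Histone H1 averaged 221 ± 22.3, 481 ± 12.7 and 657 ± 97.4 CPM in mature larva, subimago and imago, the cuticle protein 13_Contig_2062 8.74 ± 4.23, 919 ± 542 and 1.8 ± 0.537 CPM, and Broad isoform 6 236 ± 85.5, 60.6 ± 17.4 and 33.4 ± 1.42 CPM (SD, n = 3 each). Without mature larva replicate 1 the mature larva means of these 3 were 208, 11.2 and 284 CPM. Hexamerin 1 averaged 12986 ± 1305 CPM in young larvae and 1388 ± 1996, 102 ± 7.41 and 188 ± 51.3 CPM in mature larva, subimago and imago (SD, n = 3 each), and without mature larva replicate 1 the mature larva mean was 237 CPM.

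**Figure D5:**
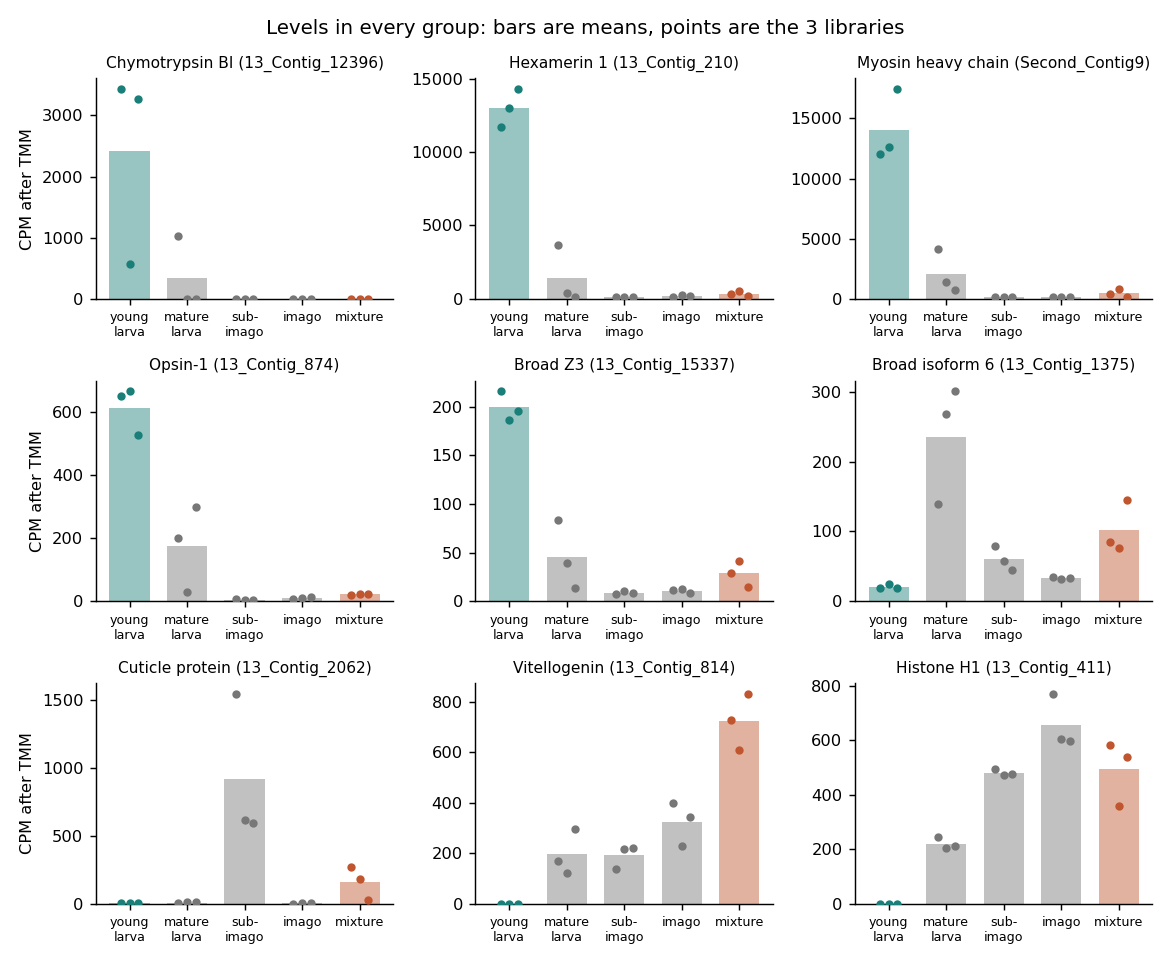
Level (CPM after TMM, linear axes) of 9 unigenes in the 4 stages, in the order of the life cycle, and in the mixture; bars are means and points the 3 libraries. Chymotrypsin BI, hexamerin 1, myosin heavy chain, opsin-1 and Broad Z3 peak in the young larva, Broad isoform 6 in the mature larva, the cuticle protein in the subimago and histone H1 in the imago, and vitellogenin is highest in the mixture.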

How the data were processed

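Whole-body RNA of 6 libraries was compared, within a table of 15 libraries and 5 groups. Per the labels' protocols, ribosomal and low-quality reads were removed and the read pairs were joined into unigenes de novo, first with CLC Genomics Workbench and then with CAP3. DESeq is named in the submitters' processing notes. The mapper and the rules of counting and strand are not stated there or in the labels. The authors' deposited table gives read counts per unigene and library, and the counts were used as deposited. Best hits were sorted by species code into arthropod, other animal and not animal.

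The robust quasi-likelihood model of edgeR 4.0.16 (limma 3.58.1, R 4.3.3) was fitted to all 15 libraries, which share 1 estimate of the spread, with TMM factors and filterByExpr. P-values were adjusted by Benjamini-Hochberg over 34131 unigenes, and calls use 0.05. Changes are log2, young larva minus mixture, ± SE, and levels are CPM after TMM. P-values rest on the spread between pools of animals in all 5 groups, with mature larva replicate 1 kept in the fit. That library adds to the spread of unigenes in which it lies apart from its group. For chymotrypsin BI (13_Contig_12396) the mature larva mean was 344 ± 595 CPM (SD, n = 3), and 0.154 CPM without that library. Totals of 36550269 to 74837923 reads set the precision. A group without a read allows 3 reads, and folds use this floor over the group. Intervals and floors cover counting error only.

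On simulated data for this comparison (31332 unigenes), few unigenes were changed, namely 47, 47, 49 and 45 with true folds of 2, 4, 16 and 64. For these the fit returned median log2 changes of 1.04, 1.89, 4.10 and 5.98. It called 1 of 47, 13 of 47, 28 of 49 and 33 of 45 of them. In the measured data 57% of all tested unigenes were called, and the adjustment of p-values is stricter where few unigenes change. The shares called in the simulation therefore cannot tell how many true changes of each size the comparison itself missed.

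Named genes are called unigenes without overlap between the groups, with a mean of at least 5 CPM in the higher group and 1 unigene per protein name: the 10 largest rises and falls among arthropod hits and the 3 among other animal hits. In each list they are up to 3 called members each way with the highest mean, overlapping groups allowed, and the text gives values for some of these. The members and lists were chosen with earlier results of these data known. Correlations of the deviations of same-numbered libraries were 0.0699, -0.0779 and 0.0198, so the numbers were not taken to pair the libraries. Alternatives covered scaling, filters, DESeq2 1.42.0, the libraries in the fit and leaving out each library.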

Additional observations from a re-analysis of the deposited data

Results flagged for a closer look

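Reads on unigenes whose best hit was not from an animal lie outside the comparison and were above the mixture in every young larva library. They took 8.00%, 1.74% and 5.05% of the reads in young larva replicates 1, 2 and 3, against 0.315%, 0.255% and 0.247% in mixture replicates 1, 2 and 3. The share in young larva replicate 2 was 26.7% of the mean of replicates 1 and 3. Mature larva replicate 1, the other library in which this share exceeded 1%, held 2.45%. Its part in the results of the comparison was not tested.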

How the results depend on the processing

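The rule named 187 called unigenes, of which 123 kept their call and direction under all 17 alternatives and 64 lost the call in at least 1. Losses were less frequent among the 123 unigenes whose values are given (27) than among the other 64 (37), so the given ones look firmer than the whole set. With library totals alone, hexokinase (13_Contig_2376) turned to 0.0254, CDC45 (13_Contig_6492) to 0.232, a Smad homolog (13_Contig_727) to 0.138, a nebulin repeat protein (13_Contig_4868) to 0.101, NADH dehydrogenase iron-sulfur protein 6 (13_Contig_959) to 0.187 and a 26S protease subunit (Second_Contig21) to 0.0333. With TMM factors of arthropod hits, CDC45 turned to 0.0691 and 13_Contig_959 to 0.0143. The count called higher in young larvae ranged from 2780 to 3753 on leaving out 1 of the 6 compared libraries at a time, lowest without mixture replicate 1, and the count called lower from 4797 to 5557. With library totals alone the count lower was 3419, beyond 1.5 times below 5394. Without mature larva replicate 1 in the fit the counts were 4063 and 5591. DESeq2 called 4416 higher and 4895 lower of the same 13442 unigenes. The numbers of the libraries are no sign of shared origin, and a fit with them as a replicate block called 3922 higher and 5324 lower. The summed level of young larva unigenes in the mixture moved to 0.0565%, 0.123% and 0.101% in mixture replicates 1, 2 and 3 with at least 200 reads required, and in replicate 3 to 0.130% with library totals and 0.317% over the wider set. Depth limits statements on unigenes with few reads, and a count of 0 over 3 young larva libraries allows up to 0.0189 CPM. Without an independent sequence source, members of 1 family and hits outside insects cannot be told apart here from pieces of 1 gene or from other organisms.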
